A study of Homo sapiens with 2 samples.

Results

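The 10 genes described here encode cell-surface molecules through which T cells and natural killer (NK) cells attach to a target cell or recognise it as stressed. They were chosen by name from the 33538 genes counted: the adhesion ligands ICAM1, VCAM1 and CD58, the NKG2D ligands MICA, MICB, ULBP1, ULBP2 and ULBP3, and PVR and NECTIN2, the ligands of the receptor DNAM-1. Their values were read in A375, an established human melanoma cell line, by droplet single-cell RNA sequencing with the 10x 3' v3 chemistry. The CTL persister library held the A375 cells left alive when cytotoxic T lymphocytes (CTLs) specific for NY-ESO-1, a cancer-testis antigen, had been in the culture for 15 days. That medium contained recombinant interleukin 2 at 7.5 ng/mL, and CTLs were replaced every 3 days. The parental library held untreated A375 cells, and whether interleukin 2 was in their medium is not given by the labels. Each group had 1 library of 1 cell line, so no test between groups was possible and none was run.

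ICAM1 binds the integrin LFA-1 (ITGAL with ITGB2) on T cells, VCAM1 binds the integrin VLA-4 (ITGA4 with ITGB1), and CD58 binds CD2. These contacts hold the immune synapse together, the junction through which a CTL delivers its granules. MICA, MICB and the ULBP proteins are recognised by NKG2D (KLRK1), an activating receptor of NK cells and CD8 T cells, and are known for being displayed by stressed, infected or transformed cells. PVR (CD155) and NECTIN2 (CD112) are nectin-family adhesion molecules that engage the activating receptor DNAM-1 (CD226), while TIGIT, CD96 and PVRIG compete for them as inhibitory or modulating receptors.

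The kept cells numbered 6605 in the persister library and 10630 in the parental library. They carried 79546026 UMIs (distinct molecules counted) in persister cells and 88110998 UMIs in parental cells, with medians of 11284 UMIs per persister cell and 7590 UMIs per parental cell. In the persister library, 162 further barcodes had 3 or more of 6 T cell genes (CD2, CD3D, CD3E, CD52, PTPRC, TRAC) and were set aside, while the parental library had 0 such barcodes. These are called T cell barcodes below. The 6 T cell genes summed to 6.24 CPM (counts per 1000000 UMIs) in kept persister cells and 2.87 CPM in kept parental cells, against 2953 CPM in the T cell barcodes. The other 20 T cell markers summed to 18.1 CPM in persister cells and 7.50 CPM in parental cells, against 7035 CPM in the T cell barcodes. CD2, CD3G, CD8B, TRBC1, GZMB and PRF1 were at 0 in parental cells, and GZMK was at 0 in persister cells. Of 16 melanoma markers, 15 had at least 1 UMI in persister cells, summing to 1622 CPM, and 14 in parental cells, summing to 686.4 CPM. MIA, at 1064 CPM in persister cells and 168 CPM in parental cells, was the largest part of the persister sum. SOX10, the lineage factor of melanocytes, was at 179.1 CPM in persister cells and 99.6 CPM in parental cells. S100A1, S100B, CSPG4, AXL and NGFR were also higher in persister cells. MITF, PRAME, SOX5 and NES were lower, NES being at 25.5 CPM in persister cells and 92.6 CPM in parental cells. The pigment genes TYR and MLANA had 0 and 1 UMI in persister cells and 0 UMIs each in parental cells. The pigment genes PMEL, DCT and TYRP1 were near 0 too, with 11, 2 and 4 UMIs in persister cells and 9, 1 and 2 UMIs in parental cells. The T cell barcodes also held 672.4 CPM of melanoma markers, so they were not pure T cells. The libraries shared 32 kept barcode sequences, which is 0.484% of persister cells and 0.301% of parental cells.

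The promoters of 4 of the genes, whose levels compared in unlike ways between the libraries, are printed here. ICAM1 was far higher in persister cells, and VCAM1, which shares the kappa-B motif with it, was near 0 in both libraries. The other 2 are the paired genes MICA and MICB. The sequences are the 250 bases upstream of the RefSeq gene start on GRCh38.p14, 5′ to 3′. Capitals mark matches, on either strand, to a kappa-B motif (GGNNNTTCC), a gamma-activated site (TTCNNNGAA), an interferon-stimulated response element (ISRE) or a heat-shock element (GAANNTTC).
ICAM1 (chr19:10270870-10271119, plus strand): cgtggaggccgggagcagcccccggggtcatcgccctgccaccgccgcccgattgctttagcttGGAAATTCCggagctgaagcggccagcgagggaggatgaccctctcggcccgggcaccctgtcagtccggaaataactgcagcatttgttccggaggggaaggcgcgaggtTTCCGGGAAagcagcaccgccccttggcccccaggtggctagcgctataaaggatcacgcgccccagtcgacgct
VCAM1 (chr1:100719492-100719741, plus strand): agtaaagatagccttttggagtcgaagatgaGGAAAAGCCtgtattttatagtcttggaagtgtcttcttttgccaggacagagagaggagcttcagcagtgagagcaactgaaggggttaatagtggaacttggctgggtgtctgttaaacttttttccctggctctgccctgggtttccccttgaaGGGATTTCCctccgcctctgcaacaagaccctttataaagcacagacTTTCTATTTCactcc
MICA (chr6:31403345-31403594, plus strand): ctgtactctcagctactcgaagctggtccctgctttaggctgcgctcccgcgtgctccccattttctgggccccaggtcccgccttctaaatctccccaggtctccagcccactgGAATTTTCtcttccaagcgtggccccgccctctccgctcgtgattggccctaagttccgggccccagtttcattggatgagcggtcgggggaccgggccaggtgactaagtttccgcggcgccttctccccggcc
MICB (chr6:31497895-31498144, plus strand): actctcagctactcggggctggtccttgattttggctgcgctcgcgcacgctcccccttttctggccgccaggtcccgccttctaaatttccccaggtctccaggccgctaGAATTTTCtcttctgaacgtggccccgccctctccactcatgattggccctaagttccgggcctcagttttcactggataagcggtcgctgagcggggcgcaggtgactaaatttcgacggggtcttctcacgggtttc

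All 10 genes matched the RefSeq table. The ICAM1 window held 1 kappa-B match, GGAAATTCC, starting 186 bases before the gene start, and 1 gamma-activated site match, TTCCGGGAA, starting 75 bases before it. The VCAM1 window held 2 kappa-B matches and 1 ISRE match. CD58 held 1 kappa-B match, and MICA and MICB each held the same heat-shock element match, GAATTTTC. The windows of ULBP1, ULBP2, ULBP3, PVR and NECTIN2 held none of the 4 motifs, nor AP-1 (TGANTCA) or TATAAA matches. Such matches are frequent by letters alone: among 27305 promoters of the same length, 17.1% held the kappa-B motif, 6.78% the gamma-activated site, 3.07% the ISRE motif and 5.85% the heat-shock element. The MICA and MICB windows were 82.7% identical over their alignment. A match describes the letters only, and factor binding was not measured.

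In kept cells of the persister library ICAM1 was the ligand gene that stood out, at 122 CPM against 4.02 CPM in parental cells. NECTIN2, PVR, MICB and CD58 were higher in persister cells by less than 2-fold, and MICA, ULBP2 and ULBP3 were lower. VCAM1 was close to absent and ULBP1 had 0 UMIs in both libraries. A gene is called measured below if it reached 5 CPM in one or both libraries, which 9938 genes did. Of these 10.1% were higher in persister cells by 2-fold or more and 10.8% were lower by that much. Of the 10 ligand genes, 5 were measured (ICAM1, CD58, MICA, PVR and NECTIN2), with 1 higher by 2-fold or more and 0 lower by that much. ICAM1 reached 5 CPM in persister cells only, and a gene measured through 1 library could not be called lower in it. A count of 1 in 5 members is too small to be read as differing from those shares. The median log2 difference was 0.48 over the 5 measured members and -0.15 over all measured genes, on the log2(CPM + 1) scale used for all log2 values here, which understates differences of low genes. Scaling by TMM in place of total UMIs shifted the median of all genes by 0.11.

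**Figure D1:**
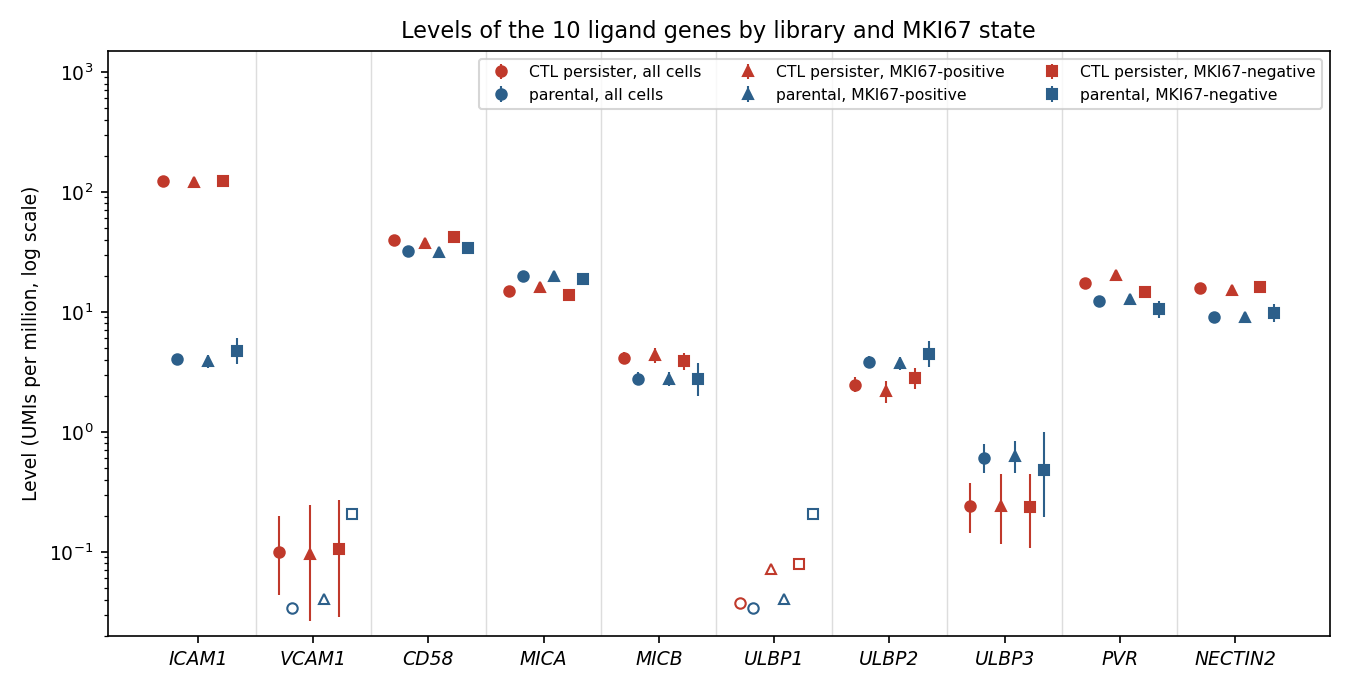
Level of each ligand gene on a log axis (CPM) in CTL persister (red) and parental (blue) cells, over all kept cells (circles) and over MKI67-positive (triangles) and MKI67-negative (squares) cells. Bars are 95% Poisson intervals of counting error, and open symbols mark 0 UMIs, drawn at the limit of 3 UMIs. ICAM1 sits at 121 to 123 CPM in each persister set and at 3.87 to 4.76 CPM in each parental set.

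Among the adhesion ligands, ICAM1 (ENSG00000090339, GRCh38 chr19:10270835-10286615, plus strand) had 9717 UMIs in persister cells and 354 UMIs in parental cells. The ratio of CPM was 30.4 (95% interval 27.3 to 33.9), or 4.62 as a log2 difference, and 24 of the 9938 measured genes had a larger one. All intervals given here are exact and cover counting error only. The order of levels among the 10 genes differed between libraries: ICAM1 was the highest in persister cells but not in parental cells, where CD58, MICA, PVR and NECTIN2 were above it and ULBP2, at 3.85 CPM, was within its counting interval. In persister cells PVR, NECTIN2 and MICA followed CD58, and the NECTIN2 and MICA intervals overlapped. UMIs were counted from 3' ends, so each gene contributes about 1 molecule per transcript whatever its length, and the order is one of captured molecules.

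**Figure D2:**
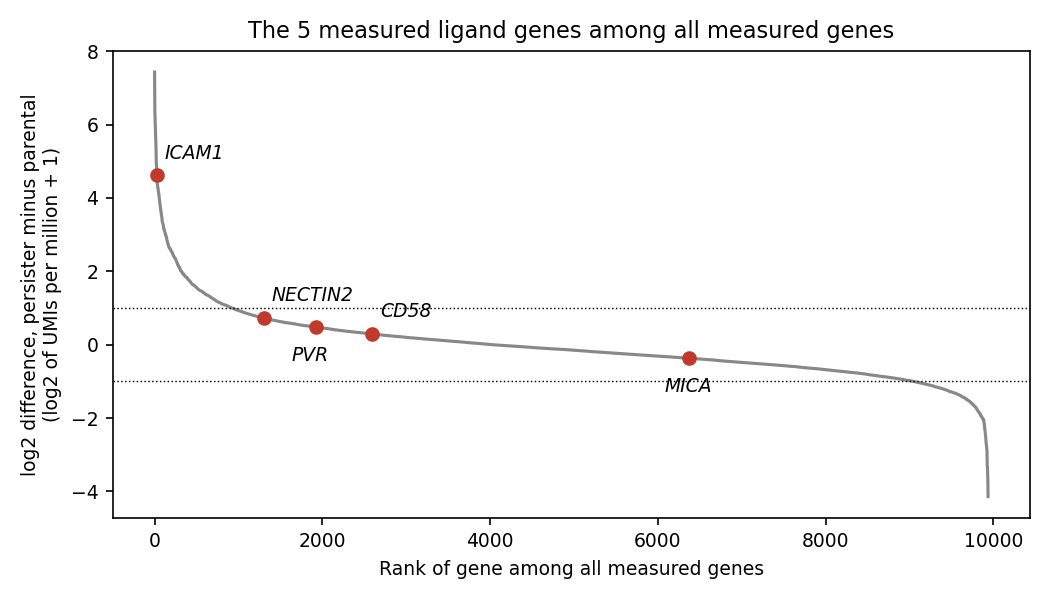
The 9938 measured genes in order of their log2 difference, persister minus parental, on the log2(CPM + 1) scale, with the 5 measured ligand genes as red points and dotted lines at 2-fold either way. ICAM1 is near the top end at 4.62, the other 4 lie between the lines, and MICA is the one below 0.

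CD58 (ENSG00000116815, chr1:116514535-116571039, minus strand), the CD2 ligand, was the most abundant ligand gene of parental cells. It was at 39.6 CPM in persister cells (3148 UMIs) and 32.2 CPM in parental cells (2834 UMIs), a ratio of 1.23 (1.17 to 1.29). The difference was larger than counting error and far under 2-fold, and there was no second library to set it against. VCAM1 (ENSG00000162692, chr1:100719742-100739045, plus strand) had 8 UMIs in persister cells and 0 UMIs in parental cells, or 0.101 CPM and under 0.0340 CPM (the level of 3 UMIs). It was thus at least 2.95-fold higher against that limit with the 8 UMIs taken as counted, while the 95% lower limit of the ratio, which allows for their counting error, was 1.89. The 8 UMIs came from 8 barcodes with 1 UMI each. Of those 8 barcodes, 2 had a UMI of one of the 6 T cell genes, against 6.40% of all kept persister cells, and the T cell barcodes held VCAM1 at 15.2 CPM. T cell RNA, estimated at 0.243% of the persister UMIs from the T cell markers, would supply 36.8% of the VCAM1 UMIs of kept cells and 0.210% of the ICAM1 UMIs. The estimate took all UMIs of those markers in kept persister cells as T cell RNA. Parental cells held the 2 marker sets at 2.87 and 7.50 CPM with no T cell barcodes. That level was not subtracted, so the estimate and both shares are on the high side. The ratio of ICAM1 with the estimated T cell RNA subtracted was 30.3.

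The DNAM-1 ligands were both somewhat higher in persister cells. NECTIN2 (ENSG00000130202, chr19:44846175-44889228, plus strand) was at 15.7 CPM in persister cells (1251 UMIs) and 9.11 CPM in parental cells (803 UMIs), a ratio of 1.73 (1.58 to 1.89). PVR (ENSG00000073008, chr19:44643798-44663583, plus strand) was at 17.5 CPM in persister cells (1396 UMIs) and 12.3 CPM in parental cells (1086 UMIs), a ratio of 1.42 (1.31 to 1.54). Of this pair NECTIN2 passed a 1.5-fold limit and PVR did not, a limit that 17.2% of measured genes passed in that direction and 25.6% in the other, where MICA did not pass it. The annotated PVR range overlaps CEACAM19 on the same strand by 1306 bases, and CEACAM19 itself had 45 UMIs in persister cells and 12 in parental cells. Antisense genes annotated across ICAM1, PVR and NECTIN2 had at most 47 UMIs each in persister cells and 48 in parental cells.

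The NKG2D ligands did not move together. MICA (ENSG00000204520, chr6:31399784-31415315, plus strand) was lower, at 15.1 CPM in persister cells (1198 UMIs) and 19.7 CPM in parental cells (1740 UMIs), a ratio of 0.763 (0.708 to 0.821). MICB (ENSG00000204516, chr6:31494881-31511124, plus strand), its neighbour in the MHC region, was higher, at 4.12 CPM in persister cells (328 UMIs) and 2.77 CPM in parental cells (244 UMIs), a ratio of 1.49 (1.26 to 1.76). The intervals of this closely related gene pair, whose promoters are printed above, lay on opposite sides of 1. MICB, like the ULBP genes, stayed under 5 CPM in both libraries and so was not among the measured genes.

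The ULBP genes lie together on chromosome 6 and encode NKG2D ligands of the RAET1 family. ULBP2 (ENSG00000131015, chr6:149942000-149949235, plus strand) was at 2.48 CPM in persister cells (197 UMIs) and 3.85 CPM in parental cells (339 UMIs), a ratio of 0.644 (0.537 to 0.770). ULBP3 (ENSG00000131019, chr6:150063150-150069095, minus strand) had 19 UMIs in persister cells and 53 UMIs in parental cells, a ratio of 0.397 (0.222 to 0.682). Both were low in each library and lower still in persister cells. ULBP1 (ENSG00000111981, chr6:149964007-149973710, plus strand) had 0 UMIs in both libraries, which allows a level of up to 0.0377 CPM in persister cells and 0.0340 CPM in parental cells. Of 50-base windows in the last 500 bases of their transcripts, 8.65% of those of ULBP2 also occur in RAET1L and 17.2% of those of ULBP3 in another gene, mainly RAET1K, while 0% of those of the other 8 members were shared. Counts of ULBP2 and ULBP3 therefore depend on how reads fitting several genes were treated.

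Summed over all 8 human NKG2D ligand genes (MICA, MICB, ULBP1, ULBP2, ULBP3, RAET1E, RAET1G, RAET1L), the level was 27.9 CPM in persister cells and 28.3 CPM in parental cells, a ratio of 0.987 (0.932 to 1.05). The make-up of that sum was unlike in the libraries. MICA made up 53.9% of it in persister cells (95% Clopper-Pearson interval 51.8 to 56.0) and 69.8% in parental cells (68.0 to 71.6). RAET1L, also named ULBP6, made up 17.9% in persister cells and 0.401% in parental cells. It had 397 UMIs in persister cells and 10 UMIs in parental cells, a ratio of 44.0 (23.7 to 92.4). At 4.99 CPM in persister cells and 0.113 CPM in parental cells it was just under the 5 CPM limit. RAET1L was singled out after its values were seen. Of its 50-base end windows 32.5% occur in other genes, mostly ULBP2. MICA and MICB alone summed to a ratio of 0.852 (0.796 to 0.911).

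**Figure D3:**
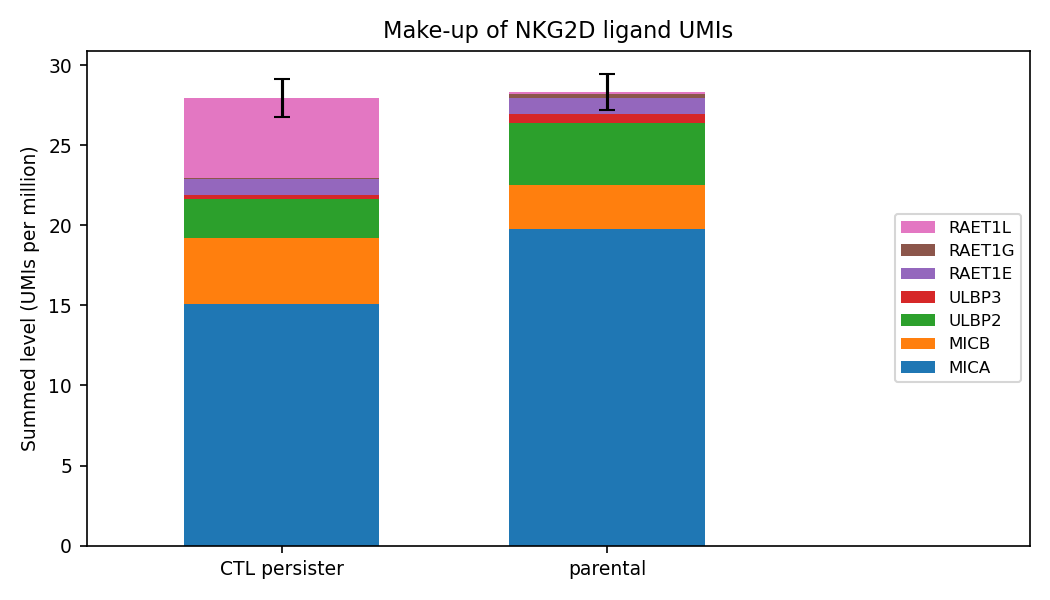
Summed level of the NKG2D ligand genes (CPM) in CTL persister and parental cells, split by gene, with ULBP1 at 0 left out of the legend. Bars on top are 95% Poisson intervals of the sum. The sums, 27.9 and 28.3 CPM, are alike, while RAET1L is a broad band in persister cells and a sliver in parental cells, and MICA is the largest band in both.

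The share of cells with at least 1 UMI of a gene follows depth, so random thinning was used to bring every cell to 5000 UMIs, leaving 5897 persister cells and 9094 parental cells. ICAM1 was then seen in 40.4% of persister cells (39.2 to 41.7) and 1.95% of parental cells (1.67 to 2.25), and without thinning in 61.6% of persister cells and 3.27% of parental cells. The T cell barcodes, with a median of 3568 UMIs, showed ICAM1 in 26.5% without thinning, and 18 of the 45 of them with 5000 UMIs or more showed it at that depth. T cells themselves can express ICAM1, and these barcodes also held melanoma RNA, so they give no clean background for it. CD58 was seen in 18.7% of persister cells (17.7 to 19.7) and 15.4% of parental cells (14.6 to 16.1), and in 14 of those 45 T cell barcodes.

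PVR was seen in 7.82% of persister cells (7.14 to 8.53) and 5.70% of parental cells (5.23 to 6.19), and NECTIN2 in 7.89% of persister cells (7.21 to 8.60) and 4.41% of parental cells (4.00 to 4.85). Among the 45 T cell barcodes at this depth, 0 held PVR and 2 held NECTIN2. MICA was seen in 6.83% of persister cells (6.20 to 7.51) and 9.35% of parental cells (8.76 to 9.96). The rarer NKG2D ligands were seen in under 2% of cells in both libraries: MICB in 1.98% of persister cells and 1.39% of parental cells, ULBP2 in 1.15% of persister cells and 1.86% of parental cells, and ULBP3 in 0.119% of persister cells and 0.429% of parental cells. VCAM1 was seen in 3 persister cells and 0 parental cells, which allows a share of parental cells with a UMI of up to 0.0330%, and ULBP1 in 0 cells of either library. The intervals of the 2 libraries did not overlap, with the persister share higher, for 4 of the 10 genes (ICAM1, CD58, PVR and NECTIN2), and with it lower for 3 (MICA, ULBP2 and ULBP3). Among 22314 genes seen at this depth, 17.9% had such intervals with the persister share higher and 25.9% with it lower. Without thinning the persister share was higher in this sense for 6 of the 10 genes and lower for 0, beside 36.5% and 13.8% of 23902 genes.

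**Figure D4:**
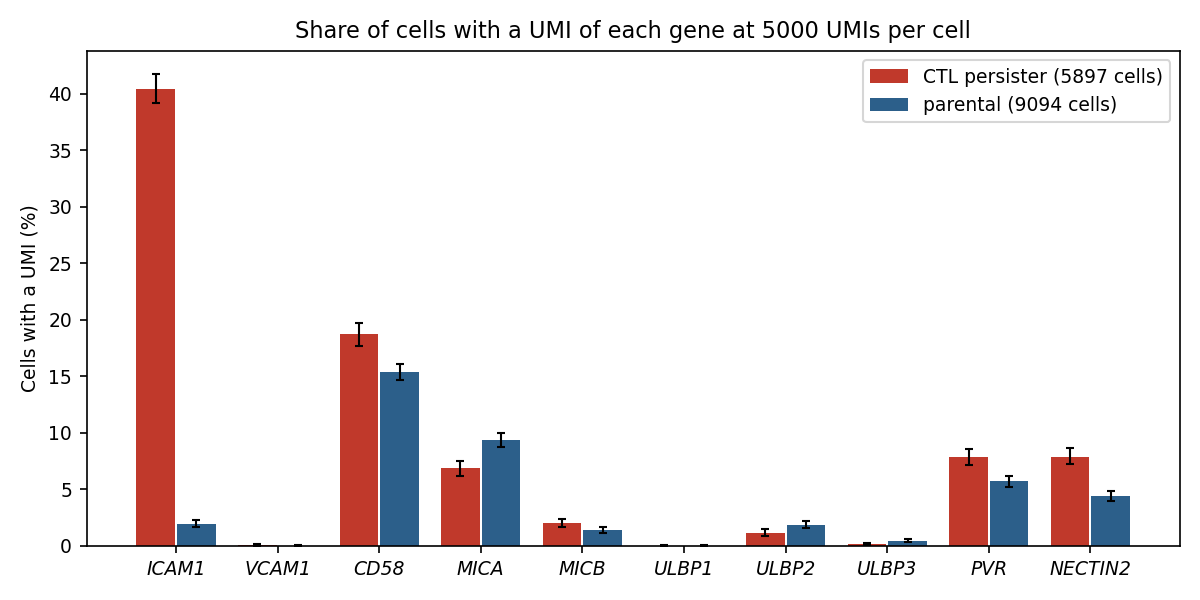
Share of cells (%) with at least 1 UMI of each ligand gene after thinning each cell to 5000 UMIs, in CTL persister and parental cells, with 95% Clopper-Pearson intervals. ICAM1 is at 40.4% in persister cells and 1.95% in parental cells, while the shares of the other genes in the 2 libraries differ by a few percentage points or less.

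ICAM1 was also uneven from cell to cell within the persister library. At 5000 UMIs per cell, 13.6% of persister cells and 0.0110% of parental cells (1 cell) had 2 or more ICAM1 UMIs, and the highest count in 1 cell was 14 in persister cells and 2 in parental cells. The variance over the mean of ICAM1 UMIs, which is 1 for counts scattered at random, was 1.54 in persister cells and 0.992 in parental cells. For the same relative unevenness this value lies nearer 1 at a lower mean. The mean was 0.620 UMIs per persister cell and 0.0196 per parental cell, so the parental value could hardly show unevenness. The top 10% of persister cells held 45.0% of the ICAM1 UMIs of that library. Some 59.6% of persister cells had no ICAM1 UMI at this depth, where the Poisson share with a UMI at the same mean would be 46.2% instead of the 40.4% seen. For CD58 the same variance over the mean was 1.05 in persister cells and 0.988 in parental cells. Its means, 0.211 UMIs per persister cell and 0.166 per parental cell, were below that of ICAM1 in persister cells, which limits the comparison.

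Cells with several of the 10 ligands were more frequent in the persister library. No ligand was seen in 37.7% of persister cells and 65.6% of parental cells at 5000 UMIs, 1 was seen in 42.9% of persister cells and 28.8% of parental cells, and 2 were seen in 16.3% of persister cells and 5.16% of parental cells. ICAM1 was the ligand seen most often in persister cells. ICAM1 and CD58 were seen together in 468 persister cells, 1.05 times the number that independence would give, and the 10 pairs of ICAM1, CD58, MICA, PVR and NECTIN2 ranged from 0.825 times (MICA with PVR) to 1.19 times (CD58 with NECTIN2). In parental cells the same pairs ranged from 0.641 to 1.39 times, on counts of 5 to 144 cells. In persister cells the sharing of ligands was thus near what their separate shares give.

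MKI67, a gene of proliferating cells, had a UMI in 43.3% of persister cells and 77.9% of parental cells, so the libraries were also compared within each state. In MKI67-positive cells (2861 persister and 8286 parental), ICAM1 was at 121 CPM in persister cells and 3.87 CPM in parental cells, a ratio of 31.4 (27.8 to 35.5). In MKI67-negative cells (3744 persister and 2344 parental), it was at 123 CPM in persister cells and 4.76 CPM in parental cells, a ratio of 25.8 (20.4 to 33.3). The ICAM1 difference was thus of like size in both states. In MKI67-positive cells 1 of the 5 measured members was higher by 2-fold or more and 0 lower, beside 9.76% and 9.69% of 9864 measured genes. In MKI67-negative cells it was again 1 and 0, beside 10.2% and 12.8% of 10077 genes.

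The other ligands kept their direction in both states. NECTIN2 had a ratio of 1.70 (1.52 to 1.90) in MKI67-positive cells and 1.66 (1.38 to 2.00) in MKI67-negative cells, and PVR one of 1.59 (1.45 to 1.75) in MKI67-positive cells and 1.39 (1.16 to 1.68) in MKI67-negative cells. CD58 had 1.18 (1.11 to 1.26) in MKI67-positive cells and 1.23 (1.11 to 1.36) in MKI67-negative cells. MICA was below 1 in both, at 0.815 (0.742 to 0.893) in MKI67-positive cells and 0.731 (0.630 to 0.849) in MKI67-negative cells. The MICB ratio was 1.57 (1.28 to 1.93) in MKI67-positive cells and 1.41 in MKI67-negative cells, where its interval (0.985 to 2.05) included 1. ULBP2 had 0.585 (0.455 to 0.744) in MKI67-positive cells and 0.625 (0.455 to 0.865) in MKI67-negative cells, and the ULBP3 interval in MKI67-negative cells (0.162 to 1.54) included 1 on 9 persister and 7 parental UMIs. Each of these directions was thus seen within both states, and not only over all cells.

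Between the states of 1 library the ligands differed little. Of the 5 members measured in persister cells 0 differed by 2-fold between MKI67-positive and MKI67-negative cells, beside 3.45% of 9510 genes higher and 0.473% lower. Of the 4 measured in parental cells it was also 0, beside 0.408% of 9554 genes higher and 0.0942% lower. In persister cells ICAM1 had a ratio of 0.988 (0.949 to 1.03), MKI67-positive over MKI67-negative, and NECTIN2 one of 0.943 (0.842 to 1.05). PVR was the ligand most unlike in the 2 states, at 20.2 CPM in MKI67-positive and 14.7 CPM in MKI67-negative persister cells, a ratio of 1.37 (1.23 to 1.53). In parental cells PVR was at 12.7 CPM in MKI67-positive and 10.5 CPM in MKI67-negative cells, a ratio of 1.20 (1.01 to 1.44). MICA had a ratio of 1.18 (1.05 to 1.32) and CD58 one of 0.897 (0.836 to 0.962) in persister cells. MKI67-positive persister cells were deeper, with a median of 13900 UMIs against 9904 in MKI67-negative ones, and with the state read after thinning the MICA ratio was 1.05 and the CD58 ratio 1.06.

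The persister cells were next ordered by the summed UMIs of 17 NF-kB target genes, or of 20 interferon-gamma target genes, neither list holding a ligand described here, and cut into 4 bins of 1474 or 1475 cells at 5000 UMIs each. The UMIs were summed without weights, so abundant genes counted most toward the order. In the interferon-gamma list these were B2M at 6978 CPM, CD74 at 3476 CPM and WARS at 1954 CPM in persister cells. Both lists were themselves high in the persister library. Of the 15 measured NF-kB genes 11 were higher by 2-fold or more in persister cells and 0 lower, their median log2 difference being 1.85, and of the 19 measured interferon-gamma genes 19 were higher, with a median of 3.80. Several genes of both lists, among them BIRC3, IL32, GBP1 and CXCL10, reached 5 CPM in persister cells only. Such genes could not be called lower, which limits these counts. BIRC3, an inhibitor of apoptosis and NF-kB target, was at 121 CPM in persister cells and 0.863 CPM in parental cells. IL32 was at 136 CPM in persister cells and 1.06 CPM in parental cells, and CXCL8 at 127 CPM in persister cells and 7.07 CPM in parental cells. These are a cytokine and a neutrophil-attracting chemokine. CXCL10, an interferon-gamma-induced chemokine, was at 71.3 CPM in persister cells on 5669 UMIs and had 1 UMI in parental cells. IRF1, the transcription factor that relays interferon-gamma, was at 947 CPM in persister cells and 17.0 CPM in parental cells, and GBP1, an interferon-induced GTPase, at 159.5 CPM in persister cells and 2.42 CPM in parental cells.

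ICAM1 climbed over the bins by both lists. By NF-kB targets it was at 91.0, 108.8, 126 and 169.7 CPM in bins 1 to 4 of the persister cells, bin 4 over bin 1 being 1.87 (1.70 to 2.05). By interferon-gamma targets it was at 79.5, 107.9, 129.7 and 178.7 CPM, a ratio of 2.25 (2.04 to 2.48). In parental cells the same ratios were 1.41 (0.905 to 2.20) and 1.35 (0.866 to 2.13), both intervals including 1. Parental bins 1 and 2 by NF-kB targets both had a median of 0 list UMIs, and bin 4 one of 2. Ties were cut in barcode order. ICAM1 had 37 UMIs in parental bin 1 and 52 in bin 4 by that list, so these bins cannot tell whether a trend was absent. Even the lowest bin of persister cells was far above the parental level in any bin. Cells of 1 library are not replicates, so these ratios describe this library.

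CD58 followed the interferon-gamma list, at 32.9 CPM in bin 1 and 48.4 CPM in bin 4 of the persister cells, a ratio of 1.47 (1.25 to 1.74), while by the NF-kB list bin 4 over bin 1 was 0.805 (0.683 to 0.949). With NF-kB bins made within each state it was 0.844 (0.658 to 1.08) in MKI67-positive and 0.812 (0.650 to 1.01) in MKI67-negative persister cells, both intervals including 1. NECTIN2 was at 15.6 CPM in bin 1 and 20.8 CPM in bin 4 by interferon-gamma targets, a ratio of 1.33 (1.04 to 1.71). PVR ran the other way, at 21.8 CPM in bin 1 and 13.4 CPM in bin 4, a ratio of 0.615 (0.474 to 0.795), and MICA stayed level at 0.980 (0.733 to 1.31). The share of MKI67-positive cells was 56.5% in bin 1 and 31.8% in bin 4, so the interferon-gamma bins were also made within each state. For PVR bin 4 over bin 1 was then 0.608 (0.421 to 0.871) in MKI67-positive and 0.681 (0.464 to 0.993) in MKI67-negative persister cells. For CD58 it was 1.52 (1.17 to 1.98) in MKI67-positive and 1.31 (1.06 to 1.64) in MKI67-negative persister cells. For NECTIN2 it was 1.25 (0.842 to 1.87) in MKI67-positive and 1.55 (1.10 to 2.20) in MKI67-negative persister cells. Over all parental cells, bin 4 over bin 1 by interferon-gamma targets was 1.17 (1.01 to 1.36) for CD58, so CD58 rose there too. It was 1.08 (0.853 to 1.36) for PVR, 0.792 (0.595 to 1.05) for NECTIN2 and 1.13 (0.930 to 1.36) for MICA, with intervals including 1.

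**Figure D5:**
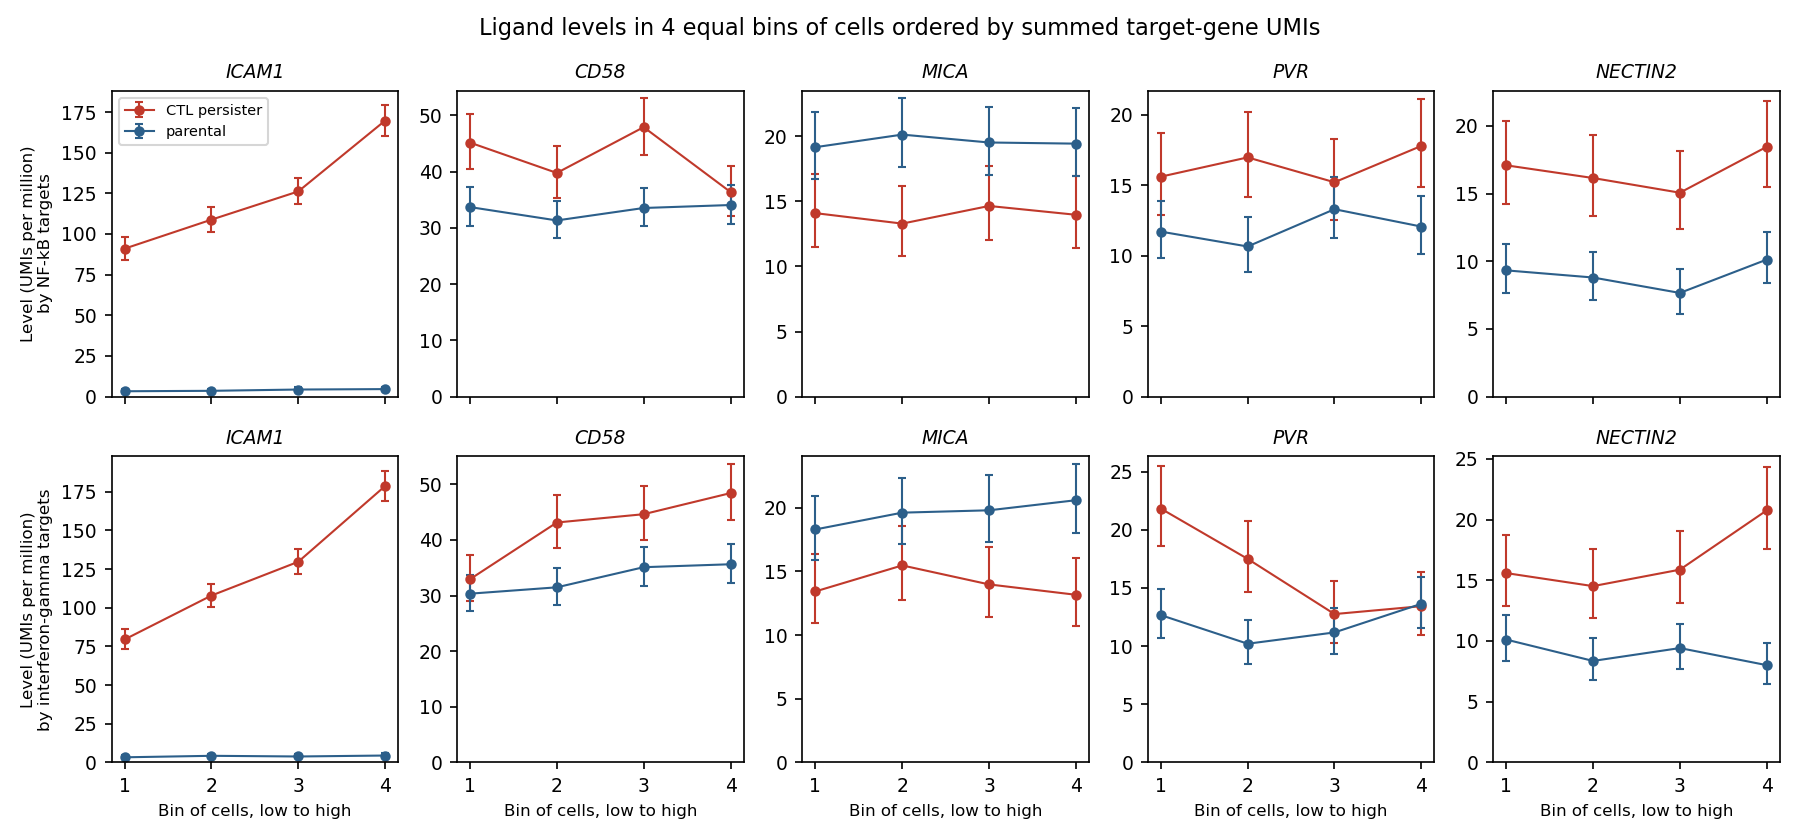
Level (CPM) of the 5 measured ligand genes in 4 bins of cells, from low to high summed UMIs of NF-kB targets (top) or interferon-gamma targets (bottom), in CTL persister (red) and parental (blue) cells at 5000 UMIs per cell, with 95% Poisson intervals. ICAM1 reaches 169.7 and 178.7 CPM in bin 4 of the persister cells, and PVR is at 21.8 CPM in bin 1 and 13.4 CPM in bin 4 by interferon-gamma targets.

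Over the 5897 persister cells at 5000 UMIs, the genes most like ICAM1 were CD74 (the MHC class II chaperone), TIMP1 (an inhibitor of metalloproteinases), IRF1, BIRC3 and HLA-B (an MHC class I heavy chain, whose counts depend on reads shared with other HLA genes). Pearson's r of log(1 + UMIs) with ICAM1 was 0.173 for CD74, 0.167 for TIMP1, 0.157 for IRF1, 0.151 for BIRC3 and 0.128 for HLA-B, out of 7263 genes with a UMI in at least 5% of those cells, of which 1% had an r above 0.0725. In the 9094 parental cells the same 5 genes had r between -0.00302 and 0.0173. ICAM1 had a UMI in 1.95% of those parental cells, so r could hardly depart from 0 there. The r values of both libraries are weak correlations between sparse counts of cells that share a library. With the other ligands ICAM1 had r from -0.00911 (PVR) to 0.0214 (NECTIN2). For CD58, MICA, PVR and NECTIN2 no gene had an r above 0.0631. The r that 1% of genes exceeded was 0.0391 for CD58, 0.0324 for MICA, 0.0417 for PVR and 0.0326 for NECTIN2. The genes named next are only the highest of 7263 small values, and whether they exceed noise was not tested. The 5 most like genes were KCNQ1OT1, ATOX1, MALAT1, WWTR1 and B2M for CD58, CDC42SE1, GPATCH4, UIMC1, PABPC4 and AKAP1 for MICA, PAWR, TPM1, NCAPD2, LIMA1 and SCG5 for PVR, and HLA-DRA, INTS14, DYNLL1, PDIA3 and SERPINE2 for NECTIN2.

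Genes around these ligands were read from 8 further lists, whose counts stand beside 10.1% of all measured genes higher, 10.8% lower and a median log2 difference of -0.15. A gene that reached 5 CPM in 1 library only could be called in 1 direction only. Among 14 other adhesion ligands 7 were measured, of which 1 was higher by 2-fold or more and 0 lower. Their median log2 difference was -0.32. The higher one was ALCAM, the ligand of CD6, at 30.3 CPM in persister cells and 9.12 CPM in parental cells, a ratio of 3.33 (3.07 to 3.61). ICAM4, singled out after its values were seen, had 223 UMIs in persister cells and 12 UMIs in parental cells, a ratio of 20.6 (11.6 to 40.4). It starts 351 bases past the end of ICAM1 on the same strand, and whether its UMIs came from ICAM1 transcripts was not tested. ICAM3 and CD44 were at 21.1 and 142 CPM in persister cells, against 26.5 and 215 CPM in parental cells.

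Of 7 other ligands of NKG2D and further NK receptors 3 were measured, with 1 higher, 0 lower and a median of 0.69. The higher one was CLEC2B (AICL), the ligand of the NK receptor NKp80, at 102 CPM in persister cells and 28.7 CPM in parental cells, a ratio of 3.54 (3.38 to 3.70). Of 8 other nectins and nectin-like genes 5 were measured, with 0 higher, 1 lower and a median of 0.06. The lower one was NECTIN1, at 2.58 CPM in persister cells and 8.23 CPM in parental cells, a ratio of 0.313 (0.267 to 0.366), opposite in direction to NECTIN2. AFDN, the afadin that ties nectins to actin, was at 24.0 CPM in persister cells and 12.5 CPM in parental cells.

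Of 10 costimulatory genes 3 were measured, with 1 higher, 1 lower and a median of 0.59. The most abundant was CD70, the ligand of CD27, at 111 CPM in persister cells and 73.3 CPM in parental cells, a ratio of 1.51 (1.46 to 1.56). CD40, a receptor that NF-kB and interferon signals can induce, was at 17.96 CPM in persister cells and 3.23 CPM in parental cells, a ratio of 5.55 (4.89 to 6.33). TNFSF9, the ligand of 4-1BB, was at 2.20 CPM in persister cells and 5.04 CPM in parental cells, a ratio of 0.437 (0.364 to 0.521). CD80 and CD86, the ligands of CD28, had 3 and 0 UMIs in persister cells, against 0 and 2 UMIs in parental cells. TNFSF14 (LIGHT), singled out after its values were seen, had 278 UMIs in persister cells and 0 UMIs in parental cells, and was at 43.3 CPM in the T cell barcodes against 3.49 CPM in kept persister cells. The part of T cell RNA in the kept-cell level of TNFSF14 itself was not estimated. T cell RNA as a whole was put above at 0.243% of the persister UMIs, an estimate on the high side.

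A further list held anchors that tie these ligands to the cytoskeleton or stabilise them at the surface. Of 10 genes 9 were measured, with 0 higher, 1 lower and a median of -0.01, which is 0.10 with TMM scaling, beside 10.1% and 10.8% of all measured genes. EZR (ezrin) was at 132 CPM in persister cells and 119.7 CPM in parental cells, and MSN (moesin) at 92.0 CPM in persister cells and 100.2 CPM in parental cells. The lower one was ARHGEF26, a guanine nucleotide exchange factor linked to ICAM1 in endothelial cells, at 1.55 CPM in persister cells and 7.88 CPM in parental cells, a ratio of 0.196 (0.161 to 0.238).

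The proteases that release MICA, MICB and ICAM1 from the surface, with their regulators, made up another list. Of 10 genes 9 were measured, with 4 higher, 0 lower and a median of 0.54, beside 10.1% and 10.8% of all measured genes and their median of -0.15. MMP9 was at 14.6 CPM in persister cells and 0.148 CPM in parental cells, a ratio of 98.8 (57.5 to 186), on 1159 UMIs in persister cells and 13 in parental cells. MMP14 was at 13.9 CPM in persister cells and 3.48 CPM in parental cells, a ratio of 3.99 (3.51 to 4.54). MMP9 and MMP14 reached 5 CPM in persister cells only, so neither could be called lower. The inhibitor TIMP1 was higher too, at 7794 CPM in persister cells and 358.9 CPM in parental cells, a ratio of 21.7 (21.5 to 21.97). The main sheddases ADAM10 and ADAM17 were at 42.9 and 28.2 CPM in persister cells, against 45.1 and 19.1 CPM in parental cells. The fourth gene of the list that was higher by 2-fold or more was RHBDF1, an iRhom that controls ADAM17, with a ratio of 2.44. No protein or shedding was measured.

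Of 15 stress and DNA damage regulators linked to NKG2D ligands 15 were measured, with 0 higher, 4 lower and a median of -0.41, beside 10.1% and 10.8% of all measured genes and their median of -0.15. E2F1, a cell-cycle transcription factor, was at 8.28 CPM in persister cells and 22.1 CPM in parental cells, a ratio of 0.375 (0.342 to 0.409). HDAC1 was at 31.4 CPM in persister cells and 77.6 CPM in parental cells, a ratio of 0.404 (0.386 to 0.423), and the checkpoint kinase gene CHEK2 at 2.58 CPM in persister cells and 7.65 CPM in parental cells, a ratio of 0.337 (0.287 to 0.394). HDAC3 was the other lower gene. The 2 libraries also differed in their share of MKI67-positive cells, given above, whose part in these values was not tested. ATM, a damage kinase, was at 46.4 CPM in persister cells and 35.9 CPM in parental cells, and HSF1, the heat-shock factor, at 31.4 CPM in persister cells and 43.8 CPM in parental cells.

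The receptors of the ligands were read in the T cell barcodes as well. These held the LFA-1 chain gene ITGAL at 98.2 CPM, CD2 at 669 CPM, TIGIT at 153 CPM and CD226 at 65.5 CPM, and the NKG2D gene KLRK1 with 1 UMI. Kept persister cells held ITGAL at 0.201 CPM, CD2 at 0.415 CPM and KLRK1 at 0 UMIs, and kept parental cells 0 UMIs of each of these 3. Of the 13 receptor genes 4 were measured in kept cells, with 1 higher, 1 lower and a median of 0.37. ITGB7, an integrin chain that pairs with ITGA4, was at 10.5 CPM in persister cells and 0.193 CPM in parental cells, a ratio of 54.4 (33.8 to 93.8), beside 45.6 CPM in the T cell barcodes. For ITGB7 itself the part of T cell RNA in kept cells was likewise not estimated, beside the 0.243% put above for all persister UMIs. ITGA4, the VCAM1-binding chain, was at 8.49 CPM in persister cells and 27.5 CPM in parental cells, a ratio of 0.308 (0.283 to 0.336). CD96, a receptor of PVR, was at 134.0 CPM in persister cells and 91.0 CPM in parental cells, so a receptor gene of this list was abundant in the A375 cells themselves.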

How the data were processed

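Per the labels' protocols, the A375 libraries used 10x Chromium 3' v3 chemistry. The authors deposited raw UMI counts for each gene in each barcode, per the file headers, and the values are whole numbers. Cell Ranger 3.1.0 and GRCh38 are named in the submitters' processing notes, and no annotation release is given in the sources used here. Barcodes were kept with at least 500 genes, 1000 UMIs and at most 20% mitochondrially encoded UMIs, and fewer than 3 of 6 T cell genes. Doublets were not called or removed. Libraries were 79546026 UMIs (persister) and 88110998 UMIs (parental) over kept cells.

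UMIs were summed per library and MKI67 state and scaled to counts per 1000000 UMIs (CPM). Ratios have 95% conditional binomial intervals, sums Poisson and shares Clopper-Pearson intervals. These and the limit of 3 UMIs for a count of 0 cover counting error only. Genes with 5 CPM or more in either set were measured, and 2-fold or more was called. With 1 library per group, no test was run. Cells were thinned without replacement to 5000 UMIs. The procedures were tested on simulated data. TMM factors came from edgeR 4.0.16 (R 4.3.3), and the rest from Python 3.11.15, numpy 2.4.6, scipy 1.17.1, pandas 2.3.3 and matplotlib 3.10.9. Coordinates are GENCODE 29. The symbol SOD2 has 2 entries in the files, of which ENSG00000112096 was used. Protein sequences were not used here.

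The members and lists were chosen with earlier results of these data known. Named were the 10 members, up to 3 genes per list with the largest absolute log2 difference among those measured and 2-fold apart, other listed genes by count or as examples, the 5 genes most like each member seen in at least 5% of cells, and the receptors. Alternatives covered the cell filter, T cell rule, scaling, low-gene filter, fold limit, pseudocount, MKI67 rule, thinning and T cell RNA. Thinning each cell before summing, and bins within MKI67 state, were chosen after seeing the data.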

Additional observations from a re-analysis of the deposited data

Results flagged for a closer look

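VCAM1, near absent from the kept cells, had 13 UMIs in 7 of the 162 T cell barcodes of the persister library, which the comparisons left out, against 8 UMIs in 6605 kept persister cells and 0 in parental cells. It drew attention because it is a signal in barcodes outside the main measurement. The level there was 15.2 CPM (8.09 to 26.0), with at most 3 UMIs in 1 barcode and a median depth of 3285 UMIs among the 7 barcodes. Which cells in those barcodes made the VCAM1 RNA was not tested.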

How the results depend on the processing

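With 1 library per group, leaving out a replicate was not possible. No paired analysis was possible because each group has 1 library. Of the counts of genes called and shares compared, 74 values under alternatives stayed within 1.5 times and 10 moved, and of the values of single genes and lists 266 stayed within counting error, 41 moved and 1, the median of the anchors, changed sign. Of the ratios of single members, 0 persister over parental crossed 1 under an alternative, against 11 values of MKI67-positive over MKI67-negative persister cells and 4 of parental cells; with the state read after thinning, CD58 in persister cells was at 1.06 in place of 0.897 and ULBP3 at 0.367 in place of 1.03. Over all alternatives the ICAM1 ratio ran from 30.0 to 33.0, NECTIN2 from 1.69 to 1.87, PVR from 1.37 to 1.54, CD58 from 1.21 to 1.33, MICB from 1.45 to 1.61, MICA from 0.716 to 0.827, ULBP2 from 0.619 to 0.698 and ULBP3 from 0.277 to 0.430. With no filter on low genes, 2 members were higher and 1 lower in all cells, and likewise 2 and 1 in MKI67-positive and 2 and 1 in MKI67-negative cells, VCAM1 and ULBP3 being added by construction; among all genes 20.5% were higher and 20.3% lower in all cells, 17% and 22.7% in MKI67-positive cells, and 24% and 19.7% in MKI67-negative cells. At 1.5-fold, 2 members were higher in all cells, 2 in MKI67-negative and 3 in MKI67-positive cells, NECTIN2 and, in the last, PVR joining ICAM1, beside 17.2%, 17.7% and 16.6% of measured genes. Without thinning, the share of cells was lower in persister cells for 0 members, beside 13.8% of genes. At 5000 UMIs per cell it was lower for MICA, ULBP2 and ULBP3, beside 25.9% of genes. Before thinning, the medians were 11284 UMIs per persister cell and 7590 UMIs per parental cell. Causes other than depth were not tested. The median log2 difference of the anchors was 0.10 with TMM scaling and -0.01 without. VCAM1, ULBP1 and ULBP3 had 0 to 53 UMIs per library, which limits the precision of their values.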
